A study of Cricetiscus sungorus with 216 samples.

Results

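Somatostatin is the peptide encoded by Sst. The set described here holds Sst, the genes of its 5 receptors, Sstr1 to Sstr5, and Cort, which encodes cortistatin, a related peptide that binds the same receptors. The members were found by their gene symbols in the transcript tables of 4 tissues, and the isoforms listed under a symbol were summed. These 7 genes stand among 32078 gene symbols in the 4 tables together. All 7 were listed in the mediobasal hypothalamus (MBH), the dorsomedial hypothalamus (DMH) and the paraventricular nucleus (PVN). In the pituitary gland 4 were listed (Sstr2, Sstr3, Sstr4 and Sstr5), and Sst, Sstr1 and Cort were not analysed here.

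Somatostatin is made as a precursor that is cut to a short and a long active peptide. Neurons of the periventricular hypothalamus release it into the portal blood, and in the anterior pituitary it holds back the release of growth hormone and of thyrotropin. Other somatostatin neurons are local GABA neurons that use the peptide as a co-transmitter. All of its receptors couple to inhibitory G proteins, which lower cAMP, open inwardly rectifying potassium channels and close voltage-gated calcium channels. In Djungarian hamsters a move to short days brings a winter coat and a loss of body mass that reverse after months without any further change of day length.

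The hamsters were adult males of the Djungarian (Siberian) hamster. One group stayed under long photoperiod (LP), and the others spent 4, 8, 12, 16, 20, 24, 28 or 32 weeks under short photoperiod (SP). There were 6 hamsters in each of the 9 groups and 54 in all, and no genetic change or drug is given for any group. The MBH, DMH, PVN and pituitary gland of each hamster gave 1 nanopore cDNA library each, 54 a tissue. Following the study, 4 and 8 weeks of SP are called induction, 12 to 20 weeks maintenance and 24 to 32 weeks recovery. The hypothalamic tissues are punches from cut sections, and no punch is described for the pituitary gland. A level is that of a mixed piece of tissue, so fewer cells of a type and less RNA per cell cannot be told apart.

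The library totals ranged from 5996 to 13208361 counts in the MBH, from 149289 to 9084072 in the DMH, from 159 to 998245 in the PVN and from 29219 to 523544 in the pituitary gland. Libraries below 10000 counts stood apart: 1 in the MBH (20 weeks SP, replicate 2, with 5996 counts) and 2 in the PVN. Levels are given as CPM, the counts of a gene relative to a library total set to 1000000, after scaling of the libraries by TMM (the trimmed mean of M-values), and they are compared within a table only. The arcuate genes Pomc, Agrp and Npy were read in 52 to 54 of the 54 MBH libraries. Of the 5 markers of the PVN, Avp, Oxt and Crh were not in the PVN table. Trh and Sim1 were, with Trh read in 51 libraries and Sim1 in 14, and together they averaged 99.9 CPM in LP. The thalamic gene Tcf7l2 averaged 3677 CPM in LP in that table. Of the 6 markers of the DMH and lateral hypothalamus, the DMH libraries with a read were 44 for Pmch, 26 for Hcrt, 17 for Grp, 15 for Ppp1r17, 9 for Npvf and 7 for Gpr50.

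In the MBH, Sst was read in 53 of the 54 libraries, with 6928 summed counts, and its level was highest in the maintenance phase. In LP the lowest, median and highest hamster had 27.1, 40.5 and 66.0 CPM. At 4 weeks of SP they had 19.9, 48.6 and 90.9 CPM, and at 8 weeks 21.9, 78.6 and 119 CPM. Of the 12 induction hamsters, 6 lay above the highest LP hamster.

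At 12 weeks of SP the lowest, median and highest hamster had 71.0, 84.6 and 126 CPM of Sst. At 16 weeks they had 46.9, 95.6 and 159 CPM, and at 20 weeks 0, 60.9 and 138 CPM. The value of 0 is the library of 5996 counts, for which a count of 0 (3 counts as the limit) allows up to 112 CPM. Every hamster at 12 weeks and 5 of 6 at 16 weeks exceeded the highest LP hamster, and over the whole maintenance phase 14 of 18 did.

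At 24 weeks of SP the lowest, median and highest hamster had 32.6, 53.1 and 90.4 CPM of Sst. At 28 weeks they had 5.15, 66.8 and 77.8 CPM, and at 32 weeks 14.99, 45.2 and 58.3 CPM. In recovery 4 of 18 hamsters exceeded the highest LP hamster, and none of these was at 32 weeks. Ordered by their means, the groups ran from 16 weeks through 12, 8, 20, 28, 24 and 4 weeks to LP and 32 weeks, and no neighbours in that order differed by more than the larger of their SDs.

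**Figure D1:**
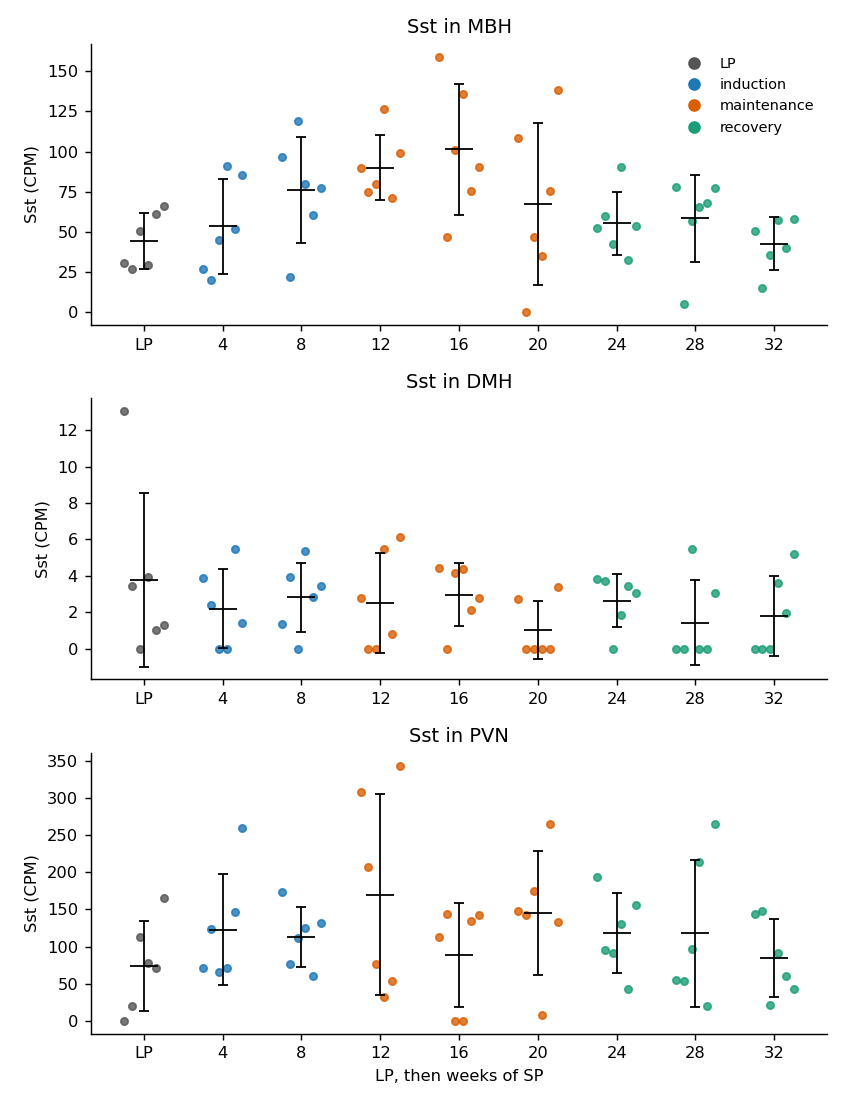
Sst in CPM (vertical axis, a scale of its own in each tissue) in every hamster of the MBH, DMH and PVN, for LP and each 4-week step of SP. Points are hamsters, 6 a group, colours are phases, and bars give the mean ± SD. In the MBH the 12-week hamsters all lie above the 6 LP hamsters, while in the DMH and PVN every SP group overlaps LP.

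By phase, Sst in the MBH averaged 44.2 ± 17.3 CPM in LP (SD, n = 6), 64.7 ± 32.1 in induction (n = 12), 86.2 ± 39.7 in maintenance (n = 18) and 52.2 ± 21.5 in recovery (n = 18). Maintenance was 1.95 times LP (2-sided exact permutation test, p = 0.0213), and recovery was 0.605 times maintenance (permutation test, p = 0.00267). Recovery and LP differed by less than the SD of either (exact permutation test, p = 0.419). These tests were chosen after the data were seen. Without the library of 5996 counts, the maintenance mean was 91.3 CPM, with p = 0.00479 against LP (exact permutation test) and p = 0.00023 against recovery (permutation test). On log2 CPM, p was 0.338 and 0.245 with that library (permutation tests) and 0.00152 and 0.00058 without it.

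The same comparisons did not pass the test across all genes. In edgeR's quasi-likelihood test on summed isoforms, the log2 fold change of Sst from LP to maintenance was 1.00 (SE 0.35), with an edgeR p of 0.00617 and an adjusted p of 0.430 over the 20156 gene symbols. From maintenance to recovery Sst fell by 0.78 on the log2 scale (SE 0.24), with an edgeR p of 0.00185 and an adjusted p of 0.467. Across the 9 groups the threshold of 0.1 (Benjamini-Hochberg FDR) was passed by 0.442% of all gene symbols in the MBH, and by 0.203% and 0.00992% in these phase contrasts. Of the members, 0 of 7 passed in any of the 3 tests by edgeR, and 0 by DESeq2. At an unadjusted p below 0.05 by edgeR stood Sst, Sstr5 and Cort across the groups, Sst and Cort from LP to maintenance, and Sst, Sstr5 and Cort from maintenance to recovery.

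**Figure D2:**
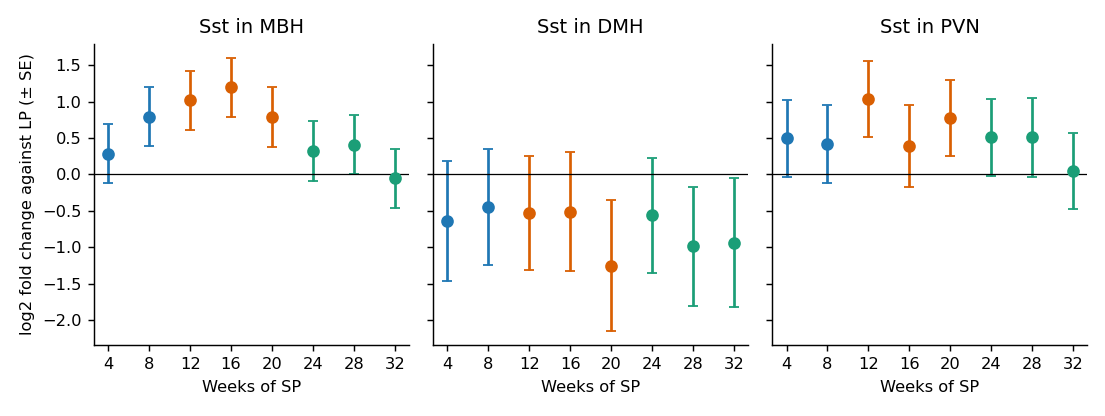
Log2 fold change of Sst against LP (vertical axis, edgeR, ± SE) at each week of SP (horizontal axis) in the MBH, DMH and PVN, 6 hamsters a group, colours as for the phases. In the MBH the estimates run from 0.28 at 4 weeks to 1.20 at 16 weeks and back to -0.05 at 32 weeks; in the DMH all 8 lie below 0, against an LP group that holds the highest DMH value, and in the PVN all 8 lie above it. All 8 points of a panel share the same 6 LP libraries.

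Sst is listed under 2 isoforms in the MBH and DMH, the predicted transcript XM_030249009.1 and the curated transcript NM_009215.1. In the MBH they had 3519 and 3409 counts in all. The values of both isoforms were equal in 16 of the 53 libraries with a count and within 5% of each other in 42, and the largest difference was 9 counts. The predicted isoform was higher in 37 libraries and the curated one in 0. In the DMH both were equal in 19 of 35 libraries, and the totals were 448 and 419. Every one of these values was a whole number. The sum therefore followed either isoform closely, and the table does not show which reads each value came from. Summed counts and CPM may thus hold the same reads more than once, which was not tested. With the highest isoform alone, Sst in the MBH averaged 22.4 CPM in LP and 43.7 CPM in maintenance.

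**Figure D3:**
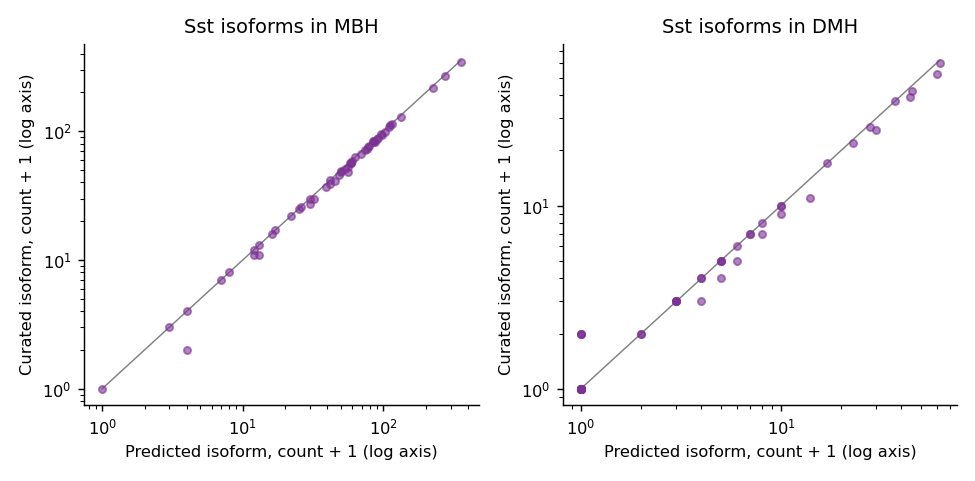
Count + 1 of the curated Sst isoform (vertical, log axis) against that of the predicted isoform (horizontal, log axis) in each MBH and DMH library, 54 libraries each; the line marks equal counts. Points lie on or just under the line in the MBH, where the totals were 3409 and 3519.

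Whether Sst passed the test across all features in the MBH depended on whether isoforms were summed. With each isoform tested alone among 91460 isoforms, the log2 fold change from LP to maintenance was 0.99 (SE 0.22) for the predicted and 1.01 (SE 0.22) for the curated isoform. The edgeR adjusted p was 0.00727 and 0.00562, and from maintenance to recovery it was 0.00352 and 0.00108. Across the groups it was 0.000276 and 0.000157. Of all isoforms, 0.485% passed across the groups, 0.499% from LP to maintenance and 0.153% from maintenance to recovery. The fold changes were those of the sum within 0.03, so it was the error that differed.

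The error used for Sst differed between these fits. The negative binomial dispersion, the variation between libraries beyond counting error, was 0.226 for the sum and 0.0720 and 0.0718 for the isoforms. Each quasi-likelihood spread is relative to the dispersion of its fit, so spreads of different fits are not on the same scale. In the fit on sums, the quasi-likelihood spread of Sst alone was 1.04 and the moderated spread that entered the test 0.989. In the fit on isoforms the spread of Sst alone was 2.21 and 2.27, and the fit replaced both with 1.04. With its own spread the unadjusted p of the isoforms was 0.00406 and 0.00405 from LP to maintenance, 0.00141 and 0.000988 from maintenance to recovery, and 0.0207 and 0.0201 across the groups, near the values of the sum (0.00617, 0.00185 and 0.0276).

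Other features of the MBH punches moved with the phases. The pars tuberalis genes Tshb and Cga, the subunits of thyrotropin, passed the test and fell from 438 ± 223 and 858 ± 445 CPM in LP to 1.14 ± 2.17 and 79.3 ± 71.2 in maintenance, with edgeR adjusted p of 4.48e-12 and 0.0114. The 5 listed markers of the pars tuberalis and pituitary summed to 580 to 2200 CPM in LP, 13.7 to 334 in induction, 3.46 to 284 in maintenance and 14.8 to 1504 in recovery. The GABA neuron markers Gad1, Gad2 and Slc32a1 summed to a median of 89.6 CPM in LP (range 45.7 to 116), 142 in induction (47.4 to 171), 136 in maintenance (0 to 212) and 130 in recovery (42.1 to 227). Of these 3 markers, 0 passed the edgeR test, and Gad1 alone had an unadjusted p below 0.05 from LP to maintenance (log2 fold change 0.72, SE 0.33, edgeR adjusted p = 0.752). Gad1 averaged 91.4 ± 43.4 CPM in maintenance and 98.9 ± 36.5 in recovery. The arcuate and ventromedial markers summed to medians of 350 CPM in LP, 281 in induction, 266 in maintenance and 298 in recovery, and the tanycyte markers to 87.6, 72.0, 89.5 and 71.6. The markers of the DMH and lateral hypothalamus summed to medians of 56.4, 29.02, 30.5 and 34.8 CPM in the same order, those of the PVN to 28.0, 12.8, 12.1 and 13.8, and those of the thalamus to 360, 319, 331 and 274. The part of cell makeup in the Sst values was not tested.

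By replicate number, Sst in the MBH was lowest in number 2, with a median of 21.9 CPM over its 9 libraries. The medians of the other numbers ran from 50.4 to 79.6 CPM. A number was not given to 1 hamster or batch by the labels. Without replicate 2, 4 weeks of SP rather than 2 had an exact permutation p below 0.05 against LP. The weeks added were 8 and 28 (p = 0.0238 and p = 0.0476, exact permutation test), beside 12 and 16.

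In the DMH, Sst was low. It was read in 35 of 54 libraries, with 867 summed counts. In LP the lowest, median and highest hamster had 0, 2.38 and 13.04 CPM. The phase means were 3.79 ± 4.77 CPM in LP (SD, n = 6), 2.51 ± 1.99 in induction (n = 12), 2.18 ± 2.14 in maintenance (n = 18) and 1.95 ± 1.99 in recovery (n = 18). All phases overlapped, and the highest value of the 54 was that of 1 LP hamster. By library totals without TMM, the mean was 9.87 ± 9.89 CPM in LP and 5.60 ± 10.9 in maintenance.

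The DMH means did not differ from LP beyond their spread in any week (lowest p = 0.186 at 20 weeks, exact permutation test). From LP to maintenance p was 0.260 (exact permutation test) and from maintenance to recovery 0.745 (permutation test). In edgeR's test the log2 fold change from LP to maintenance was -0.77 (SE 0.64, adjusted p = 0.815), where the median of all 21821 gene symbols was -0.26. Without replicate 1, whose LP library held the highest value, it was -0.02, and the DMH means of LP and maintenance were 1.94 and 1.95 CPM. Of all gene symbols in the DMH 4.62% passed across the groups, 0.898% from LP to maintenance and 0% from maintenance to recovery. Of the members, 0 of 7 passed by edgeR or DESeq2 in any of these tests. Sstr5 and Cort had an unadjusted edgeR p below 0.05 across the groups, on 2 and 1 libraries with a read, Cort and Sstr3 from LP to maintenance, and Sstr3 from maintenance to recovery. The 19 libraries without an Sst count held 149289 to 4506788 counts, and on the TMM scale a count of 0 allowed up to 2.82 to 33.7 CPM in them. In 16 of the 19 this limit lay above 3.44 CPM, the median of the libraries with a count, so such a level was not detectable there.

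In the PVN, Sst is listed under 1 isoform, XM_003495603.3, which is not in the other tables, and its levels are not set beside theirs. It was read in 51 of 54 libraries with 1431 counts. In LP the lowest, median and highest hamster had 0, 74.7 and 165.3 CPM. At 12 weeks they had 31.9, 142 and 343 CPM, at 16 weeks 0, 123 and 143, and at 20 weeks 7.79, 145 and 265.2. The LP value of 0 is the library of 159 counts, for which a count of 0 allows up to 979 CPM. The next lowest LP hamster had 19.6 CPM. Most SP hamsters lay within the range of LP, and 2 of 12 in induction, 5 of 18 in maintenance and 3 of 18 in recovery lay above it.

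The PVN means ran from 74.5 ± 60.5 CPM in LP (SD, n = 6) to 118 ± 57.4 in induction (n = 12), 135 ± 100.2 in maintenance (n = 18) and 107 ± 69.1 in recovery (n = 18). Maintenance was 1.81 times LP, a difference within the spread (exact permutation test, p = 0.182), as was that between maintenance and recovery (permutation test, p = 0.338). Without the libraries of 159 and 5158 counts, both with no Sst count, maintenance was 1.59 times LP (exact permutation test, p = 0.262). The edgeR log2 fold change from LP to maintenance was 0.74 (SE 0.46, adjusted p = 1). Of all 18960 gene symbols 0.0158% passed across the groups and 0.0158% from LP to maintenance, and 0% from maintenance to recovery. In all 3 tests 0 of the 7 members passed, by edgeR or DESeq2, and 0 had an unadjusted edgeR p below 0.05 in any of the 3 tests. The 3 libraries without an Sst count held 159 to 22217 counts.

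The receptors and Cort were read at a few counts a library. For Sstr1 and Sstr2 in the MBH, the text gives the CPM of the summed isoforms in each hamster. Elsewhere the counts are those of the isoform with the highest total, pooled over the libraries of a phase. Both measures are not on the same scale. A library was taken as read where any isoform of the gene had a count. Intervals are exact 95% Poisson intervals of the pooled CPM, for which the counts were divided by the summed TMM-scaled totals, and like the limits of a count of 0 (3 counts over the group) they cover counting error only, not the spread between hamsters.

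Sstr1 encodes a receptor of inhibitory G proteins that is widespread in the brain. In the MBH it was read in 42 of 54 libraries. The lowest, median and highest LP hamster had 0, 1.22 and 4.25 CPM, and the highest value of all was 10.3 CPM at 28 weeks. The phase means were 1.54 ± 1.44 CPM in LP (SD, n = 6), 2.87 ± 2.08 in induction (n = 12), 2.81 ± 2.58 in maintenance (n = 18) and 2.80 ± 2.73 in recovery (n = 18). The groups overlapped throughout, and maintenance did not differ from LP beyond the spread (exact permutation test, p = 0.273).

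Sstr2 encodes one of the main receptors on growth hormone cells and is also found on hypothalamic neurons. In the MBH it was read in 43 of 54 libraries. The lowest, median and highest LP hamster had 0, 1.31 and 6.37 CPM, and recovery ranged from 0 to 3.40 CPM. In maintenance the highest value, 37.5 CPM, was a single count in the library of 5996. With that library the means of LP, maintenance and recovery were 1.93, 2.95 and 1.53 CPM, with differences within the spread (exact permutation test, p = 0.928 from LP to maintenance). Without it the maintenance mean was 0.92 CPM, below LP (exact permutation test, p = 0.113) and below recovery (permutation test, p = 0.0408, chosen after the data were seen). The order of the phases thus turned on 1 read.

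Sstr3 and Sstr4 encode receptors found mainly in the brain, and Sstr3 sits on neuronal cilia. Sstr3 was read in 20 MBH libraries and Sstr4 in 18. Sstr3 had 3 counts in LP, 2 in induction, 14 in maintenance and 15 in recovery, or 0.285 CPM (interval 0.0588 to 0.833) in LP and 0.481 (0.263 to 0.807) in maintenance. Sstr4 had 2, 6, 5 and 9 counts in the same order, or 0.190 CPM (0.0230 to 0.687) in LP and 0.172 (0.0558 to 0.401) in maintenance. The intervals overlapped between all phases for Sstr4, and no difference was detectable at this depth.

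Sstr5 encodes the other main receptor of the pituitary and was read in 20 MBH libraries. It had 2 counts in LP, 5 in induction, 13 in maintenance and 4 in recovery. Reads came from 10 of 18 maintenance hamsters and 4 of 18 recovery hamsters. Pooled, that is 0.190 CPM (interval 0.0230 to 0.687) in LP, 0.447 (0.238 to 0.764) in maintenance and 0.117 (0.0319 to 0.300) in recovery. In edgeR's test on summed isoforms Sstr5 fell by 2.20 on the log2 scale from maintenance to recovery (SE 0.58), and the adjusted p was 0.300. The counting intervals of these phases overlapped.

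Cort, the gene of cortistatin, a peptide of cortical and hippocampal interneurons, was read in 9 MBH libraries. No read came from the 6 LP and the 12 induction hamsters, which allows up to 0.285 and 0.138 CPM. Maintenance had 12 counts in 6 hamsters, 2 at each of 12, 16 and 20 weeks, and recovery had 4 counts in 3 hamsters, all at 32 weeks. Pooled, that is 0.412 CPM (interval 0.213 to 0.720) in maintenance and 0.117 (0.0319 to 0.300) in recovery. Across the groups the edgeR adjusted p was 0.194.

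**Figure D4:**
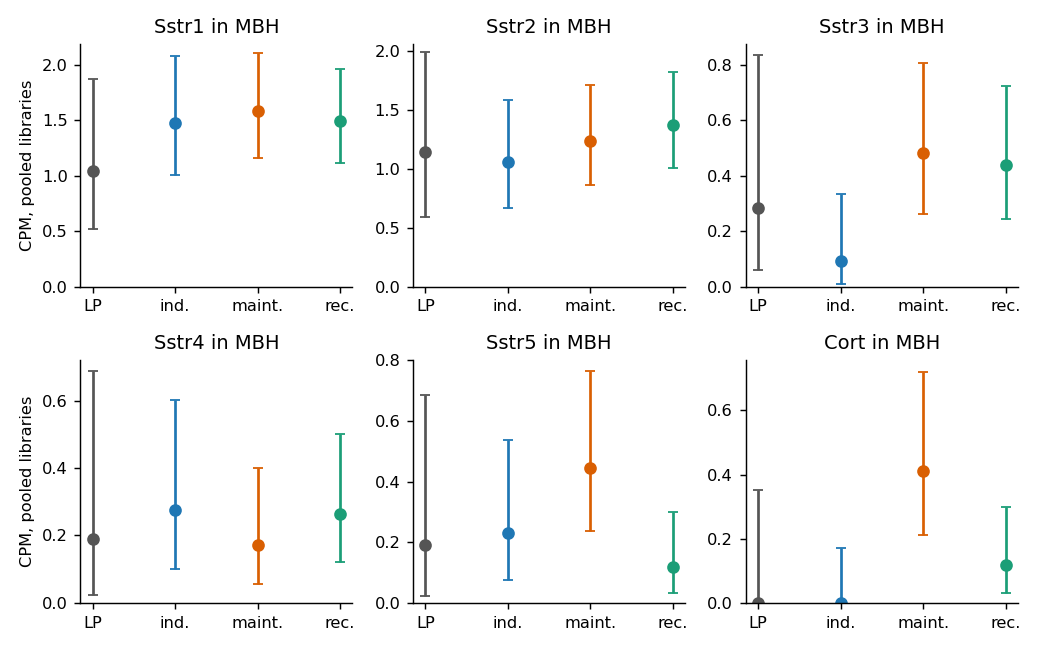
Pooled CPM (vertical axis, a scale of its own in each panel) of the 5 receptors and Cort in the MBH by phase, from the isoform with the highest total, over 6 LP, 12 induction, 18 maintenance and 18 recovery libraries. Bars are exact 95% Poisson intervals, which cover counting error only. Cort has no count in LP and induction and 12 counts in maintenance, and the intervals of most other phases overlap.

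In the other tissues the receptors were read in fewer libraries, and levels are not set side by side between tables. In the DMH, Sstr1 was read in 13 libraries, Sstr2 in 14, Sstr3 in 12, Sstr4 in 3, Sstr5 in 2 and Cort in 1. Sstr2 had 4, 5, 12 and 19 counts from LP to recovery there, or 0.124 CPM (interval 0.0339 to 0.318) in LP and 0.236 (0.142 to 0.368) in recovery. In the PVN, Sstr2 was the receptor with a read in most libraries, 26 of 54, and Sstr1 followed with 20. Sstr2 had 4, 9, 18 and 19 counts from LP to recovery, or 3.04 CPM (0.827 to 7.77) in LP and 5.71 (3.44 to 8.91) in recovery. Sstr3 was read in 12 PVN libraries, Sstr4 in 6, Sstr5 in 5 and Cort in 5. No member among these had an edgeR adjusted p below 0.1.

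In the pituitary gland, the target of hypothalamic somatostatin, the receptors were close to the limit of what these libraries could show. Sstr5 was read in 8 of 54 libraries, Sstr3 in 5, Sstr2 in 3 and Sstr4 in 1. Sstr5 had 0 counts in LP, 2 in induction, 5 in maintenance and 2 in recovery. Of these 54 libraries 37 held fewer than 100000 counts. A count of 0 over the LP libraries allows up to 5.49 CPM, above the pooled level of 2.35 CPM (interval 0.762 to 5.48) in maintenance, so a difference from LP was not detectable at this depth. Of all gene symbols there 9.56% passed the F-test across the groups, 0.440% from LP to maintenance and 0.302% from maintenance to recovery, and of the 4 members 0 passed by edgeR or DESeq2. At an unadjusted edgeR p below 0.05 stood 1 of them across the groups, Sstr5.

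The labels carry the same animal number in the MBH and DMH, so both regions of each hamster could be compared, on the 17693 gene symbols and 84377 isoforms that both tables share. Scaled together over the libraries of both tables, Sst averaged 28.9 ± 15.2 CPM in the MBH and 6.01 ± 6.41 in the DMH (SD, n = 54), and it was higher in the MBH of 52 hamsters. These CPM are on the joint scaling and so are lower in the MBH and higher in the DMH than within each table. The log2 fold change from MBH to DMH was -2.35 (SE 0.27), with an edgeR adjusted p of 5.46e-12, hamster as a block. The libraries of the regions differed as a whole, since 40.7% of all gene symbols were lower in the DMH by this test and the median over all of them was -0.61. Relative to that median Sst was lower by a log2 value of -1.74, and 2.79% of gene symbols had a lower fold change. With library totals in place of TMM the fold change of Sst was -4.58, where the median was -2.44.

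Of the 5 receptors, 2 passed the same test, Sstr1 and Sstr5, a share like the 40.7% of all gene symbols. Sstr1 had a log2 fold change of -1.81 (SE 0.38, edgeR adjusted p = 8.39e-05) and Sstr5 of -1.51 (SE 0.59, edgeR adjusted p = 0.0357), with a read in only 2 DMH libraries. Sstr2, at -0.61 (SE 0.41, edgeR adjusted p = 0.392), lay at the median of all genes, and Sstr3 and Sstr4 did not pass. The change of Sst from LP to maintenance was not shown to differ between the regions by the test of the difference (DMH minus MBH log2 value -1.64, SE 0.95, edgeR adjusted p = 1). By that test 0.0283% of all gene symbols passed. With the highest isoform alone the difference was -1.72 (SE 0.54), with an edgeR adjusted p of 0.658.

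**Figure D5:**
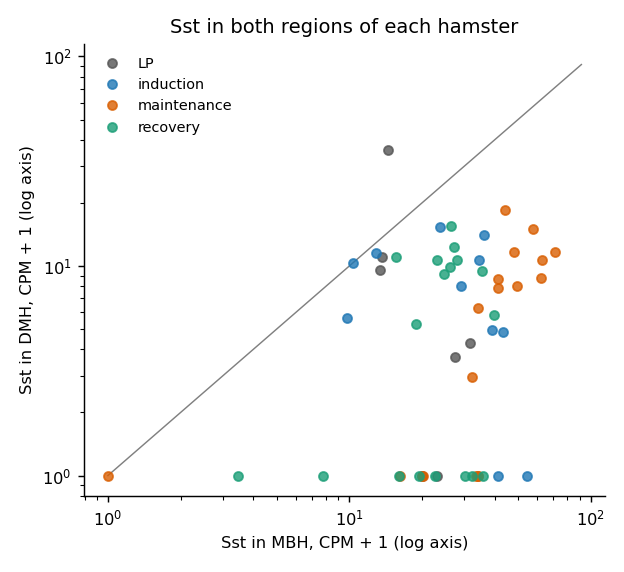
Sst in the DMH (vertical) against Sst in the MBH (horizontal) of the same hamster, both as CPM + 1 on log axes from 1 scaling of both tables together, coloured by phase; the line marks equal levels. Of the 54 hamsters 52 lie below the line, 1 above it and 1 has no count in either.

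Within groups, Sst in one tissue of a hamster showed no relation to Sst in another that passed the test. After subtraction of the group means of log2 CPM, Pearson's r between the MBH and DMH was 0.15 over 53 hamsters (permutation p = 0.349, adjusted 0.465, for 4 relations in all), with a Spearman's rho of 0.157 (permutation p = 0.291, adjusted 0.388). Between the MBH and PVN r was 0.204 over 51 hamsters (permutation p = 0.198, adjusted 0.396) and rho 0.204 (permutation p = 0.162, adjusted 0.325). Between the DMH and PVN r was 0.0271 over 52 hamsters (permutation p = 0.863, adjusted 0.863) and rho 0.0169 (permutation p = 0.916, adjusted 0.916).

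The fourth relation was between Sst in the MBH and Gh, the gene of growth hormone, in the pituitary gland. Here r was -0.24 over 53 hamsters (permutation p = 0.102, adjusted 0.396) and rho -0.252 (permutation p = 0.0897, adjusted 0.325). Without the 2 hamsters farthest from the median, r was 0.149, 0.18, 0.0223 and -0.28 in the same order. Between the MBH and PVN, with the 38 hamsters whose libraries both held at least 100000 counts, r was 0.367 (permutation p = 0.0419, adjusted 0.168).

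Genes of the growth hormone axis were measured beside the members. Of the 10 listed, 8 were in the MBH table and 0 passed edgeR's test, with 1 (Gal) read in 53 libraries. Gal, a neuropeptide of arcuate growth hormone-releasing neurons, had 39.95 ± 10.9 CPM in LP and 57.7 ± 33.4 in maintenance (log2 fold change 0.60, SE 0.34, edgeR adjusted p = 0.849). Ghrh itself, the releasing hormone, was read in 11 MBH libraries. The median log2 fold change of the 8 from LP to maintenance was 0.35, where that of all gene symbols was 0.

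Gh, growth hormone, passed the F-test across the groups in the pituitary gland, with an edgeR adjusted p of 0.0643. It averaged 41937 ± 11176 CPM in LP and 64583 ± 20551 in maintenance (log2 fold change 0.62, SE 0.19, adjusted p = 0.223). Among the 9 listed genes of that table, Gh was the 1 that passed, beside 9.56% of all gene symbols. By DESeq2 1 gene symbol passed in that tissue, where edgeR called 2149. Pou1f1, the factor that sets up growth hormone cells, had 17.6 ± 12.9 CPM in LP and 21.9 ± 21.2 in maintenance.

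The genes that carry the receptor signal and those that cut prosomatostatin did not pass in the MBH (0 of 17 and 0 of 4 by edgeR). The inhibitory G protein gene Gnai2 had 64.2 ± 19.1 CPM in LP and 65.2 ± 21.98 in maintenance, and Ptpn11, a phosphatase, 45.4 ± 11.7 and 34.8 ± 14.4. Cpe, the carboxypeptidase that trims the cut peptide, had 122 ± 19.2 and 128 ± 42.1 CPM, and Pcsk2, a convertase, 6.86 ± 2.46 and 9.15 ± 3.701. The median log2 fold change from LP to maintenance was -0.41 over the signalling genes and 0.16 over the processing genes. In the PVN 0 of 16 and 0 of 4 passed. In the DMH 1 of 17 signalling genes passed across the groups, beside 4.62% of all gene symbols, namely Kcnj5, a potassium channel subunit read in 3 libraries (edgeR adjusted p = 0.0549). In the pituitary gland 2 of 17 passed, beside 9.56% of all gene symbols, the calcium channel genes Cacna1a and Cacna1b (edgeR adjusted p = 0.0477 and 0.00141), read in 23 and 11 libraries. Both shares are near those of all genes, and DESeq2 called 1 gene symbol in each of these tissues.

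The genes whose log2 CPM ran most like Sst over the libraries of a table were named by Pearson's r, as a description without a test. In the MBH, over 53 libraries and among 8946 genes, they were Nrsn2 (r = 0.683), Rtf1 (0.665), Rnasek (0.663), Dynll1 (0.652) and Syt5 (0.639). In the PVN, over 52 libraries and among 4293 genes, they were Ndn (r = 0.769), Rsph1 (0.746), Fam216b (0.734), Pdia6 (0.723) and Cfap126 (0.720). Each point is 1 library, so the genes compared share its depth, and no gene stands in both lists.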

How the data were processed

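Nanopore cDNA libraries were made from the MBH, DMH, PVN and pituitary gland of 54 hamsters. Per the study's methods, the authors trimmed and filtered the reads, used Minimap2 to align these to GRCm39, the mouse assembly, quantified transcripts with Salmon and removed lowly expressed transcripts with EdgeR, so a low member can be missing from a table. The labels give a PCR-cDNA kit for each tissue, the methods a direct cDNA kit for the pituitary gland. The deposited values are expected counts per isoform, 1 table per tissue, and 99.5% to 99.8% of them were whole. The PVN table shares no isoform identifiers with the others, and which annotation it came from is not given in the sources used.

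Isoform counts were summed per gene symbol, rounded and fitted with edgeR 4.0.16 in R 4.3.3 (quasi-likelihood in the edgeR 3 form, TMM, no filter), 1 model of 9 groups per table, with Benjamini-Hochberg FDR below 0.1 over all gene symbols. DESeq2 1.42.0 was an alternative. Weeks and phases were also compared by permutation of CPM (exact, or 100000 permutations), log2 CPM had a prior count of 2, and libraries below 10000 counts were left out in turn. The members and gene lists were chosen with earlier results of these data known. The permutation tests of phases, the isoform contrasts, the fit with the isoform's own spread and log2 CPM without the shallow libraries were added after seeing the data. The genes named are the members, listed genes that passed a test used here or else up to 4 of a list by level, and the 5 genes most like Sst. Other listed genes were named after their values were seen. Replicate numbers mark different hamsters, and p-values rest on the spread between hamsters. In the fits on single isoforms, however, the quasi-likelihood spread of Sst in the MBH was replaced with a value shared over features.

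The fits were each tested on a single draw of simulated data with known changes. In a draw 200 genes were changed 4-fold, taken from those of higher level. From LP to maintenance, the test called more unchanged than changed genes in the DMH (68 and 11) and pituitary gland (121 and 21). In the MBH it called 44 unchanged beside 157 changed genes, and in the PVN 50 beside 153. The test of DMH against MBH called 62 unchanged beside 200 changed genes. Unlike the real data, its draw held 3000 genes with the same dispersion for every gene and no difference between hamsters. In each of these draws, unchanged genes were a larger share of the calls than the FDR threshold allows. Calls in all tissues and between the regions are to be read with that limit, most of all in the DMH and pituitary gland. No sequences or coordinates were used, since no reference of the files' annotation was used here.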

Additional observations from a re-analysis of the deposited data

Results flagged for a closer look

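Of 45 groups of 6 hamsters tested for a single value far from the others, 3 had one, where chance gives about 1 in 20. In the MBH at 28 weeks of SP, Sst of replicate 2 was 5.15 CPM (4 counts), while the other hamsters had 57.1 to 77.8 CPM. In the MBH at 20 weeks, Sstr2 of replicate 2 was 37.5 CPM, which is 1 count in a library of 5996, while the others had 0 to 2.17 CPM. In the DMH in LP, Sst of replicate 1 was 13.04 CPM (120 counts of 7714634), while the others had 0 to 3.92 CPM.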

How the results depend on the processing

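Over 45 results and 569 alternatives, 520 were taken as unchanged. For a test this means the same side of the threshold and, where it has one, the same direction. For a count of weeks it means a count near the main one. In the MBH Sst passed edgeR's test where isoforms were not summed. With the highest isoform its adjusted p was 9.41e-08 across the groups (log2 values 1.03 from LP to maintenance and -0.79 from maintenance to recovery). With XM_030249009.1 alone it was 0.000276 (0.99 and -0.75) and with NM_009215.1 alone 0.000157 (1.01 and -0.79). The spread used for each isoform alone is given with the isoforms. In the fit on the highest isoform the spread of Sst alone was 2.51. That fit replaced it with 0.965, at a dispersion of 0.0560. By permutation the MBH difference from LP to maintenance lost its call on log2 CPM (0.67), and from maintenance to recovery on log2 CPM (-0.54) and with library totals without TMM (-36.5 CPM). On log2 CPM both calls returned without the library of 5996 counts. With each replicate number left out in turn, the former ran from 32.7 to 48 CPM and the latter from -38.1 to -29.1 CPM. Without replicate 1 and replicate 4 the former had p = 0.0848 and p = 0.0541 (exact permutation tests).

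The count of SP weeks that differed from LP (exact permutation p below 0.05) ran from 2 to 4 in the MBH and from 0 to 1 in the PVN with a replicate left out. At 32 weeks the MBH difference from LP was 5.60 CPM with library totals (-7.28 to 2.57 with a replicate left out), at 20 weeks -0.23 on log2 CPM, and at 4 weeks -1.24 to 12.9 CPM with a replicate left out.

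In the DMH the change of Sst from maintenance to recovery, near 0, turned to a log2 value of 0.60 with library totals and 0.13 with the replicate block (-0.33 to 0.16 with a replicate left out). By permutation it was 0.371 CPM with library totals (-0.513 to 0.142 with a replicate left out), and from LP to maintenance -2.49 to 0.00663 CPM (-1.32 to -0.02 as edgeR log2 value). Sstr1 in the MBH ran from -0.524 to 0.744 CPM from maintenance to recovery (-0.52 to 0.23 as edgeR log2 value). Sstr2, with the library of 5996 counts out, was -1.01 CPM from LP to maintenance and 0.606 CPM from maintenance to recovery, -0.0937 and 0.108 on log2 CPM, and -0.33 and 0.35 with both. With a replicate left out it ran from -1.31 to 2.23 and from -1.94 to 0.659 CPM (-0.95 to 0.23 as edgeR log2 value from LP to maintenance). Members called across the groups became 1 in the MBH (Cort) and 2 in the DMH (Cort and Sstr5) with library totals, and 2 in the MBH (Sst and Cort) with the highest isoform. The causes were not tested.

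Calls over all genes moved more. Across the groups the MBH had 89 (0.442% of genes, 1.23% without TMM, 12 by DESeq2, 4 filtered on low counts, 7 to 30 with a replicate left out), the DMH 1008 (34 in the edgeR 4 form, 1 by DESeq2), the PVN 3 (40 and 0) and the pituitary gland 2149 (2401 and 1). With the replicate block they were 22, 227, 75 and 2357 and no member was called. Replicate numbers mark different hamsters, so they were not used as pairs. The lowest correlation of a same-numbered pair was -0.158, -0.577, -0.202 and -0.124. The median was 0.045, 0.069, 0.053 and 0.067 for same-numbered pairs and -0.007, -0.011, -0.011 and -0.015 for other pairs. Still, the mean correlation with the libraries of other groups was compared between the 6 numbers. It was highest for the library's own number in 28 of 54 MBH libraries, 24 in the DMH, 28 in the PVN and 41 in the pituitary gland. By chance about 1 in 6 would be. This is a hint from the data that libraries of a number share something the labels do not give. The permutation tests took no account of it. Sst was not tested in the pituitary gland, and no member passed the filter on low counts there. Depth limits every receptor value.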
